A study of Mus musculus with 12 samples.

Results

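The genes described here are the desaturases and elongases of polyunsaturated fatty acid synthesis in mouse liver: *Fads1*, *Fads2*, *Fads3*, *Fads6*, *Elovl1*, *Elovl2*, *Elovl3*, *Elovl5* and *Scd2*. They were chosen by gene name, with earlier results of these data known, and make up 9 of the 24062 genes in the count tables. All 9 passed the filter on low counts (at least 1 CPM, the count scaled to library size, in no fewer than 2 of 12 libraries), as did 12481 genes in all. RNA was sequenced from the liver of 12 female C57BL/6J mice that arrived at 6 weeks of age and were acclimated for 2 weeks. All of them ate the control diet (15% of kcal from fat, 65% from carbohydrate and 20% from protein) for 3 days, after which 6 of the sequenced mice stayed on it and 6 received the matched diet with BIBB-515 at 55 mg/kg body weight for 10 days. BIBB-515 inhibits lanosterol synthase, which closes the sterol ring in cholesterol synthesis. The study used 11 mice per diet, and the sequenced ones are control mice 1 to 6 and BIBB-515 mice 6 to 11.

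Mammals make arachidonic, eicosapentaenoic and docosahexaenoic acid from the plant fatty acids linoleic and alpha-linolenic acid by alternating desaturation, which adds a double bond, and elongation, which lengthens the chain. The liver is a main site of this pathway, and its genes are known targets of the transcription factors SREBP-1c and PPAR-alpha. Within the group, *Fads2* catalyses the first desaturation, *Elovl5* and *Elovl2* lengthen polyunsaturated chains, and *Fads1* catalyses a later desaturation. The other genes are relatives: *Fads3* acts on sphingoid bases, *Elovl1* and *Elovl3* lengthen mainly saturated and monounsaturated chains, and *Scd2* makes monounsaturated fatty acids.

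*Fads3*, *Fads2* and *Fads1* are neighbours on chromosome 19 (mm10, the build of the count tables). *Fads3* lies at chr19:10041548-10059671 on the plus strand, *Fads2* at chr19:10064164-10101503 on the minus strand and *Fads1* at chr19:10182888-10196872 on the plus strand. The 5′ ends of *Fads2* and *Fads1* face each other across 81385 bases. On the 3′ side, the counted exons of *Fads3* and *Fads2* end 4493 bases apart, without the last part of *Fads2*, which was not counted. *Elovl3* (chr19:46131899-46135694) and *Scd2* (chr19:44293676-44306862) are on the same chromosome. *Elovl1* lies at chr4:118428093-118432952, *Elovl2* at chr13:41182382-41220403, *Elovl5* at chr9:77917365-77984519 and *Fads6* at chr11:115283366-115297546.

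The 250 bases before the transcription start are shown for the genes past the test that are in the promoter table used here (RefSeq, GRCm38.p6, equal to mm10), in which *Scd2* was not found, so that the starts of the 4 genes that were lower can be read beside that of *Fads6*, which was higher. Capitals mark matches on either strand to CCAAT (the CCAAT box), TCACNCCAC (a sterol regulatory element), CACGTG (an E-box of the carbohydrate response type), AGGTCA (a nuclear receptor half-site) and GGGCGG (a GC box), and no matches overlap in these windows. The windows are chr19:10101504-10101753 (minus strand) for *Fads2*, chr9:77917115-77917364 (plus) for *Elovl5*, chr13:41220404-41220653 (minus) for *Elovl2*, chr19:10041298-10041547 (plus) for *Fads3* and chr11:115297563-115297812 (minus) for *Fads6*.
Fads2: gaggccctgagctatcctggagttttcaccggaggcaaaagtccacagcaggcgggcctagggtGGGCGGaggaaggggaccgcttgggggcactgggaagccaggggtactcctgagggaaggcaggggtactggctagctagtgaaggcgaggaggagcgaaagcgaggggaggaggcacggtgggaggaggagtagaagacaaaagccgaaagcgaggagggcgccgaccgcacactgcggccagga
Elovl5: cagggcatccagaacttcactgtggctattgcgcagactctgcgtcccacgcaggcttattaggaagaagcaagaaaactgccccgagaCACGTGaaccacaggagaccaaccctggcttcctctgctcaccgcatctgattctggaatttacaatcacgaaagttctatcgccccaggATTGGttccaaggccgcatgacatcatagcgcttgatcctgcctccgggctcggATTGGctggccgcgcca
Elovl2: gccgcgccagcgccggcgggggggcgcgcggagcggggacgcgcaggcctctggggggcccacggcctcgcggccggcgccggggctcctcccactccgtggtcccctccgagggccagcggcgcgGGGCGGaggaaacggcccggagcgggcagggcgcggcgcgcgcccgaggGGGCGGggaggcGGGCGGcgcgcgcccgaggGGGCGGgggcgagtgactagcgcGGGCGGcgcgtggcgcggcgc
Fads3: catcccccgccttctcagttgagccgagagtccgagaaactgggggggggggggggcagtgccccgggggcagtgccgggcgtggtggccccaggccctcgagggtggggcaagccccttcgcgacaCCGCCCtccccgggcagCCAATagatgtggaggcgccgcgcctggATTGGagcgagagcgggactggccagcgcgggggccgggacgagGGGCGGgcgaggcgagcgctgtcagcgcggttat
Fads6: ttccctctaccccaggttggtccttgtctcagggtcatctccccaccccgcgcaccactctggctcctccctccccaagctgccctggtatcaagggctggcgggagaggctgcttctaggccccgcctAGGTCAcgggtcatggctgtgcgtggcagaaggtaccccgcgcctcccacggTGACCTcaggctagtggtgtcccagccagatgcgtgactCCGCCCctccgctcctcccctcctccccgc

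*Elovl5* held 2 CCAAT boxes and 1 E-box, *Fads3* 2 CCAAT boxes and 2 GC boxes, and *Fads2* 1 GC box. The *Fads3* exon that follows this window held 72 reads over all mice, against 734 in the next exon. Few counted reads of *Fads3* thus came from the exon at this start. The window of *Elovl2* shown, with 87.2% G and C, held 5 GC boxes, and *Fads6* held 2 nuclear receptor half-sites and 1 GC box. A second annotated start of *Elovl2*, with the window chr13:41220163-41220412 (79.6% G and C, not shown), had 0 matches. No window held the sterol regulatory element as spelled here. Among all 32851 windows of this length, 33.8% held a CCAAT box, 32.7% a GC box, 14.0% the half-site, 6.02% the E-box and 1.05% the sterol regulatory element. These are matches of letters, and binding of a factor was not measured.

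In the livers of BIBB-515 mice, *Elovl2*, *Elovl5*, *Fads2* and *Fads3* were lower and *Scd2* and *Fads6* were higher. Of the 9 genes, 4 were called lower and 2 higher at an adjusted p under 0.05 (edgeR's quasi-likelihood test, Benjamini-Hochberg over all tested genes). Over all tested genes the background was 6.48% called lower and 7.18% called higher. The median log2 fold change was −0.22 over the 9 genes and −0.01 over all tested genes. All fold changes compare BIBB-515 with control mice, so negative values are lower with BIBB-515. In a tissue sample, fewer cells of a type and less RNA per cell cannot be told apart.

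**Figure D1:**
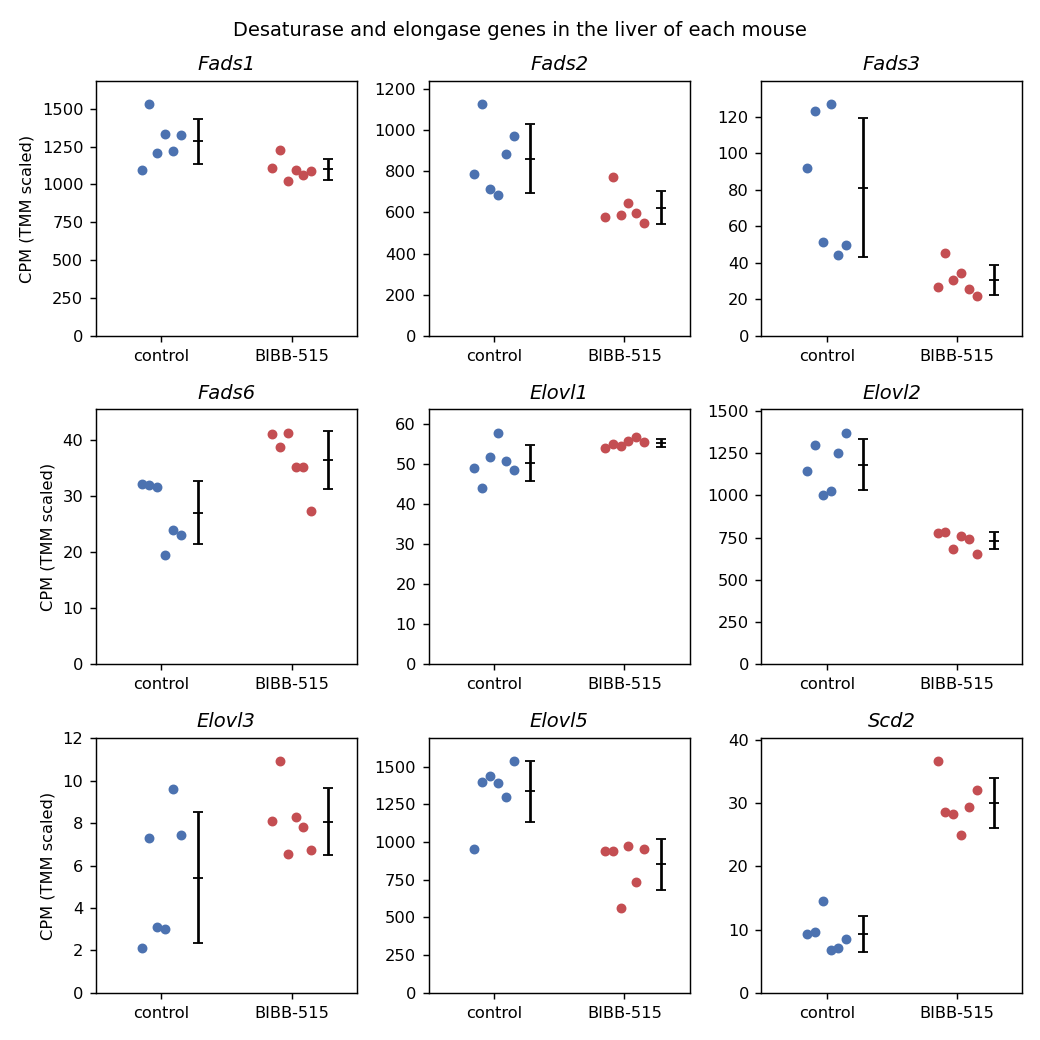
Level of each of the 9 genes (CPM scaled by TMM, linear axes from 0) in 6 control and 6 BIBB-515 mice. Each point is 1 mouse, and the bars give the mean ± SD. The groups do not overlap for *Elovl2* and *Scd2*.

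*Fads2*, the first desaturase of the pathway, ranged from 684 to 1124 CPM in control mice (median 833) and from 549.9 to 771 CPM in BIBB-515 mice (median 592). The groups overlapped, since BIBB-515 mouse 7 lay above the lowest controls, while 5 of 6 BIBB-515 mice lay below every control. *Fads2* fell by 0.47 ± 0.12 on the log2 scale (SE, edgeR adjusted p = 0.0221, exact permutation p = 0.00866). Without BIBB-515 mouse 11 its adjusted p was 0.0521.

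*Fads1*, the later desaturase, ranged from 1094 to 1530 CPM in control mice (median 1276) and from 1023 to 1227 CPM in BIBB-515 mice (median 1092). Again the groups overlapped, with 4 of 6 BIBB-515 mice below every control. The log2 fold change was −0.22 ± 0.08 (SE, 95% interval −0.40 to −0.05), and its edgeR adjusted p of 0.0872 missed the threshold. Its exact permutation p, not adjusted over genes, was 0.0216, beside an unadjusted edgeR p of 0.0173. DESeq2 gave an adjusted p of 0.0342, so its call depends on the method of the fit.

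*Elovl5*, the elongase of the shorter polyunsaturated chains, ranged from 951 to 1536 CPM in control mice (median 1395) and from 561 to 977 CPM in BIBB-515 mice (median 942). The groups overlapped at control mouse 1, which lay at the level of the higher BIBB-515 mice and below every other control. *Elovl5* fell by 0.65 ± 0.14 on the log2 scale (SE, edgeR adjusted p = 0.00838, exact permutation p = 0.00649).

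*Elovl2*, which lengthens the longer chains on the way to docosahexaenoic acid, ranged from 1003 to 1370 CPM in control mice (median 1195) and from 656 to 781 CPM in BIBB-515 mice (median 750). Every BIBB-515 mouse lay below every control, as for 2.72% of all tested genes. *Elovl2* fell by 0.69 ± 0.09 on the log2 scale (SE, edgeR adjusted p = 1.99e-04), and its exact permutation p was 0.00216, the smallest that this design allows.

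*Fads3* had the largest fall of the group. It ranged from 44.2 to 127 CPM in control mice (median 71.8) and from 21.8 to 45.4 CPM in BIBB-515 mice (median 28.7). The control mice were uneven, with mice 1, 2 and 4 high and mice 3, 5 and 6 near the highest BIBB-515 mouse, which lay just above the lowest control. *Fads3* fell by 1.40 ± 0.27 on the log2 scale (SE, edgeR adjusted p = 0.00412, exact permutation p = 0.00433).

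*Scd2* had the largest rise. This stearoyl-CoA desaturase is a relative of the main liver enzyme *Scd1* and is known mostly from brain. It ranged from 6.80 to 14.5 CPM in control mice (median 8.94) and from 24.9 to 36.6 CPM in BIBB-515 mice (median 29.0). The groups did not overlap, as for 4.35% of all tested genes in this direction. *Scd2* rose by 1.69 ± 0.16 on the log2 scale (SE, edgeR adjusted p = 9.34e-06, exact permutation p = 0.00216), which is 3.22 times the control mean.

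*Fads6*, a desaturase relative, ranged from 19.5 to 32.3 CPM in control mice (median 27.9) and from 27.3 to 41.4 CPM in BIBB-515 mice (median 37.0). BIBB-515 mouse 11 lay among the controls and the other 5 lay above them. *Fads6* rose by 0.43 ± 0.13 on the log2 scale (SE, edgeR adjusted p = 0.0446, exact permutation p = 0.0216). This call was the least stable of the 6: it was lost on leaving out any 1 of control mice 4, 5 and 6 or BIBB-515 mice 6 to 10, with adjusted p-values over all 12 leave-outs from 0.0245 to 0.0939. With control mouse 3 and BIBB-515 mouse 8 both left out, an alternative chosen after the data were seen, it was also lost (adjusted p = 0.0615).

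*Elovl1* and *Elovl3*, the elongases of mainly saturated and monounsaturated chains, did not pass the test. *Elovl1* ranged from 44.1 to 57.8 CPM in control mice (median 49.9) and from 54.1 to 56.7 CPM in BIBB-515 mice (median 55.3), which lay within the control range. Its log2 fold change was 0.13 ± 0.06 (SE, 95% interval 0.00 to 0.26, edgeR adjusted p = 0.154). Its exact permutation p, not adjusted over genes, was 0.0195, beside an unadjusted edgeR p of 0.0432. None of 10 alternatives in processing called it (adjusted p 0.109 to 0.219). Without control mouse 4 its edgeR adjusted p was 0.0288, so its call depends on this mouse. *Elovl3* ranged from 2.13 to 9.62 CPM in control mice (median 5.21) and from 6.56 to 10.9 CPM in BIBB-515 mice (median 7.96). The control mice again spread widely, and the log2 fold change was 0.58 ± 0.30 (SE, 95% interval −0.07 to 1.22, edgeR adjusted p = 0.217, exact permutation p = 0.0952).

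**Figure D2:**
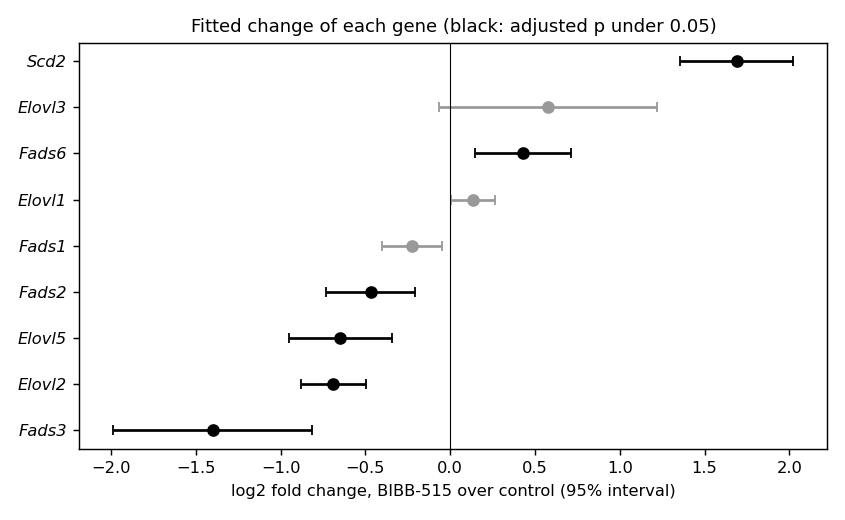
Fitted log2 fold change of each gene (BIBB-515 over control, 6 mice per group, edgeR) with its 95% interval. Black points passed an adjusted p of 0.05 and grey points did not. *Fads3* lies farthest below 0 at −1.40 and *Scd2* farthest above it at 1.69.

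Levels of different genes were compared per length, as reads per kilobase of counted exon in the CPM scale. In control mice the order of mean levels was *Fads2* (570.4 ± 111, SD, n = 6), *Elovl5* (480.5 ± 73.1), *Fads1* (372 ± 42.8) and *Elovl2* (308 ± 39.0), followed far below by *Elovl1* (25.9 ± 2.33), *Fads3* (24.9 ± 11.6), *Fads6* (21.9 ± 4.49), *Elovl3* (2.89 ± 1.64) and *Scd2* (1.71 ± 0.51). The ranges of neighbours overlapped except between *Elovl2* and *Elovl1* and between *Fads6* and *Elovl3*. In BIBB-515 mice *Fads2* still led (412 ± 52.8), and *Fads1* (318 ± 19.9) came before *Elovl5* (306 ± 60.1), with overlapping ranges. *Fads3* (9.41 ± 2.56), above *Fads6* in control mice, lay below *Fads6* (29.4 ± 4.23), which had a range overlapping that of *Elovl1* (28.5 ± 0.48), and *Scd2* (5.50 ± 0.73) and *Elovl3* (4.30 ± 0.84) overlapped at the bottom. The tables count 1508 bases of *Fads2* exon, which leave out the last part of the RefSeq gene.

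Changes were compared exon by exon. In the exon tables every exon row with at least 120 reads was lower for *Fads2* (12 rows, log2 ratio of group means −0.56 to −0.32), *Fads3* (11 rows, −1.68 to −1.06), *Elovl2* (8 rows, −0.71 to −0.47) and *Elovl5* (8 rows, −0.67 to −0.47). All 6 rows of *Scd2* (1.05 to 2.21) and all 6 rows of *Fads6* (0.36 to 0.46) were higher. *Fads1* was lower in 12 of 12 rows (−0.25 to 0.00), with its first exon at the upper end, *Elovl1* was higher in 7 of 9 rows (−0.12 to 0.47), and *Elovl3* in all 4 (0.46 to 0.95). In 7 of the 9 genes the log2 ratio of the first such row lay above that of the last, a pattern noticed after the values were seen, as in *Scd2* (2.21 and 1.70) and *Elovl3* (0.95 and 0.46). *Fads3* (−1.68 and −1.33) and *Fads6* (0.36 and 0.41) went the other way, and the part of RNA quality or coverage along the transcript in this was not tested. The first exon row of *Fads3*, which follows the promoter window shown above, held 72 reads over all mice and was left out by this minimum. Its mean was 0.153 CPM in control and 0.287 CPM in BIBB-515 mice, opposite to the other rows. These are descriptions with no test, and reads that cross a junction count in more than 1 row.

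**Figure D3:**
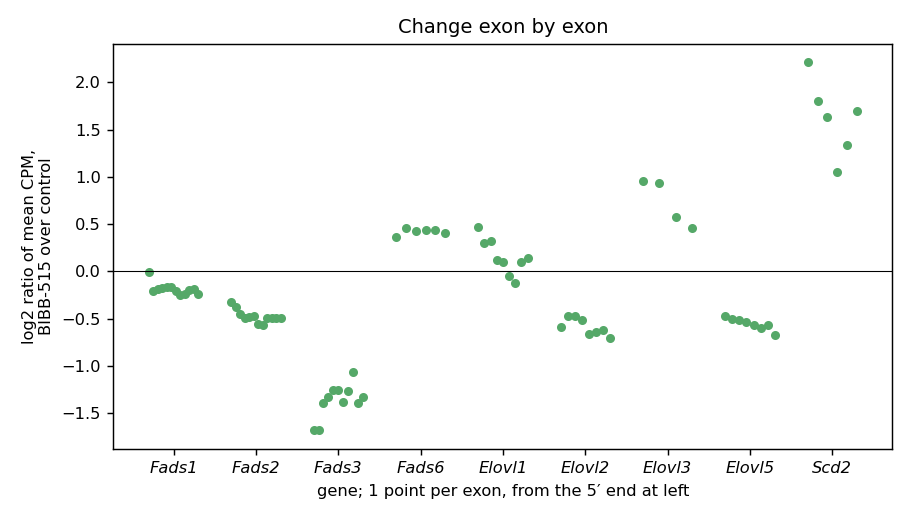
Log2 ratio of mean CPM (BIBB-515 over control) in each exon row with at least 120 reads, from the 5′ end at left within each gene. All rows of *Fads2*, *Fads3*, *Elovl2* and *Elovl5* lie below 0, and all rows of *Scd2* and *Fads6* lie above it.

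Reads shared between relatives could blur these levels, since reads mapping to several places were left out of the tables. In the authors' tables of primary alignments, *Scd2* had 2.59% more reads and the other 8 genes between 0% and 0.231% more. *Scd1* was far more abundant than *Scd2*, at 12830 to 51548 CPM in control mice, with the highest level in control mouse 3, which also had the highest *Scd2* of the controls. The log2 fold change of *Scd1* was −0.54 ± 0.31 (SE, edgeR adjusted p = 0.275), opposite in sign to that of *Scd2*.

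Ratios of gene pairs within a library, in which the library scaling cancels, were compared with exact permutation tests (two-sided, adjusted over the 3 ratios). The log2 ratio of *Scd2* over *Scd1* per length was −11.48 ± 0.58 in control and −9.31 ± 0.49 in BIBB-515 mice (SD), a rise of 2.17 with no overlap (exact permutation p = 0.00216, adjusted 0.00649). *Scd2* alone had this same exact permutation p, the smallest that the design allows, and *Scd1* alone had 0.266. This ratio is thus not a result separate from the rise of *Scd2*. The ratio of *Fads1* over *Fads2* was −0.60 ± 0.22 in control and −0.37 ± 0.12 in BIBB-515 mice (exact permutation p = 0.0411), and its adjusted p of 0.0617 missed the threshold. For *Elovl2* over *Elovl5* the ratio was −0.64 ± 0.28 and −0.66 ± 0.29 (exact permutation p = 0.874).

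**Figure D4:**
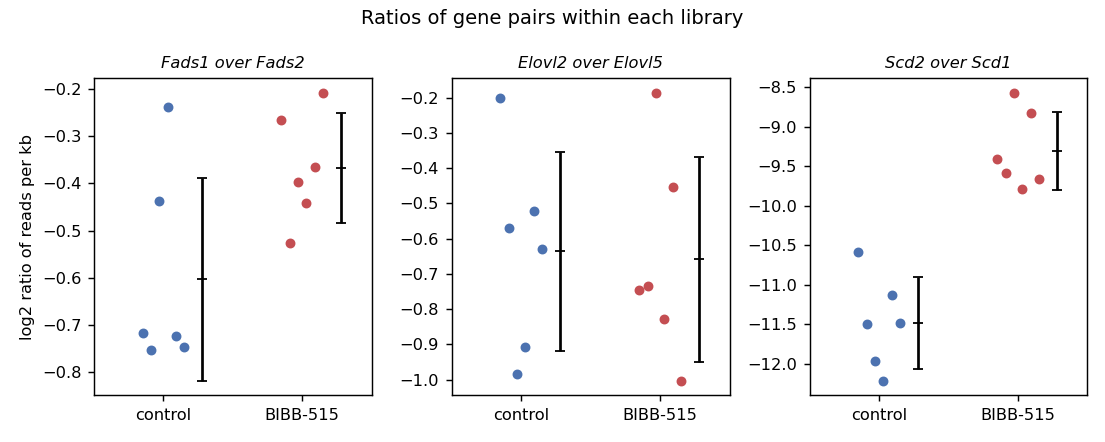
Log2 ratio of reads per kilobase for 3 gene pairs in each of 6 control and 6 BIBB-515 mice, with mean ± SD. The groups separate for *Scd2* over *Scd1*, at means of −11.48 and −9.31, and overlap for both other pairs.

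None of the 5 tested among 8 other desaturases and elongases was called, including *Elovl6*, the elongase of saturated chains (log2 fold change −0.72 ± 0.47, edgeR adjusted p = 0.326). Of these, 1 had an unadjusted p under 0.05, DESeq2 and limma-voom called 0, and 1 was called higher without control mouse 3. Among 6 partners of the elongation cycle, *Hacd1*, a dehydratase, rose by 0.45 ± 0.12 (edgeR adjusted p = 0.0236) and the other 5 were not called. No partner was called higher without control mouse 1, BIBB-515 mouse 8 or BIBB-515 mouse 10. Among 6 tested genes of electron supply to the desaturases, *Cyb5a*, cytochrome b5, rose by 0.87 ± 0.11 on the log2 scale (edgeR adjusted p = 1.79e-04). It ranged from 477 to 798 CPM in control mice and from 1030 to 1377 CPM in BIBB-515 mice, with no overlap, while the other 5 were not called.

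None of 11 tested acyl-CoA synthetases and acyltransferases was called by edgeR's quasi-likelihood test, and 2 had an unadjusted p under 0.05. DESeq2, edgeR's likelihood ratio test and the fit with 1 surrogate variable each called 1 of them lower, as did the quasi-likelihood test without control mouse 3 or 5. Among 13 regulators, *Insig2*, which retains the SREBP complex in the endoplasmic reticulum, rose by 0.91 ± 0.18 (edgeR adjusted p = 0.00412), and the other 12 were not called. *Srebf1*, which encodes SREBP-1c, had a log2 fold change of −0.17 ± 0.16 (edgeR adjusted p = 0.507). *Srebf2*, the regulator of sterol synthesis, had 0.18 ± 0.11 (adjusted p = 0.275). *Ppara*, a nuclear receptor for fatty acids, had −0.27 ± 0.13 (adjusted p = 0.164), and *Mlxipl*, which encodes the carbohydrate response factor, had −0.24 ± 0.14 (adjusted p = 0.271).

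Of 10 genes listed here as lipogenic targets of SREBP-1c, only *Pklr*, liver pyruvate kinase, was called. It fell by 0.89 ± 0.23 on the log2 scale (edgeR adjusted p = 0.0194), and the other 9 were not called (median of all 10, −0.63). Of the 10, 4 had an unadjusted p under 0.05, and DESeq2 and edgeR's likelihood ratio test each called 2 lower. Whether SREBP-1c acts on *Pklr* was not tested. *Fasn*, fatty acid synthase, had −0.70 ± 0.43 (adjusted p = 0.292), with control mice spread from 892 to 8368 CPM. Of 13 sterol targets of SREBP-2, 5 were called higher and none lower (median 0.56): *Cyp51* (1.17 ± 0.21), *Mvk* (1.12 ± 0.20), *Idi1* (1.16 ± 0.24), *Fdft1* (0.71 ± 0.20) and *Pmvk* (0.56 ± 0.17), all enzymes of cholesterol synthesis. Of 17 tested targets of PPAR-alpha, 2 were called lower (median −0.16), against a background of 6.48% over all tested genes. *Cyp4a31*, a fatty acid hydroxylase, had −0.86 ± 0.26 (exact permutation p = 0.0584). *Fabp1*, the liver fatty acid binding protein, had −0.68 ± 0.21 (exact permutation p = 0.0476). Neither limma-voom nor the fit with 1 surrogate variable called any of the 17 targets lower, and in 8 of the 12 fits with 1 mouse left out none was called lower.

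Within 100 kb of the *Fads* cluster 6 other genes were tested, examined after the values of the 9 genes were known. Of these, 5 were not called and *Fth1*, ferritin heavy chain, rose by 0.69 ± 0.08 on the log2 scale (edgeR adjusted p = 4.16e-05).

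After the diet means were removed, the levels of *Fads2* and *Elovl2* moved together over the 12 mice (Pearson 0.84, Spearman 0.90). This pair was picked as the closest of all pairs among the desaturases and elongases described here. *Elovl3*, with a fold change of opposite sign, followed *Elovl2* (0.764 and 0.867) and *Fads2* (0.748 and 0.825) nearly as closely. The likeness was thus not particular to the genes that act on polyunsaturated chains. *Fads2* and *Fads1* (0.67 and 0.48) and *Elovl2* and *Elovl5* (0.24 and 0.29) were less alike. Among 8507 genes whose average log2 CPM reached 3, those most like *Fads2* were *Pank1* (Pearson 0.93, Spearman 0.93), *Fitm2* (0.91 and 0.94) and *Serhl* (0.90 and 0.83). Those most like *Fads1* were *Pprc1* (0.86 and 0.80), *Zfp750* (0.85 and 0.82) and *Cidec* (0.84 and 0.78), and those most like *Elovl5* were *Hamp* (0.85 and 0.51), *Mmadhc* (0.84 and 0.61) and *Fam35a* (0.83 and 0.77). These correlations are descriptions, and the points share library and scaling.

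The libraries held 22764819 to 27914647 counted reads in control and 24223939 to 31058370 in BIBB-515 mice. Markers of hepatocytes, which dominate the liver, summed to 139299 to 158786 CPM in control and 104320 to 119478 CPM in BIBB-515 mice, without overlap. Most of this sum was albumin (mean 120000 CPM in control and 90900 CPM in BIBB-515 mice). Of the 6 markers 4 were called lower, and all 6 had a negative log2 fold change. The part of this shift in the results was not tested. Stellate cell and fibroblast markers summed to 274 to 376 CPM in control and 262 to 322 CPM in BIBB-515 mice, with 2 of 6 called lower. Markers of Kupffer cells and macrophages (286 to 487 CPM in control and 290 to 517 CPM in BIBB-515 mice), endothelial cells (184 to 247 CPM in control and 170 to 235 CPM in BIBB-515 mice), bile duct cells (62.8 to 116 CPM in control and 92.1 to 155 CPM in BIBB-515 mice) and leukocytes (16.4 to 21.6 CPM in control and 11.9 to 23.5 CPM in BIBB-515 mice) overlapped between the diets, and none was called. Of 6 adipocyte markers 5 were below the filter, with *Lep* at 0 in every mouse, and the other was not called. The 4 globin genes among the 5 red blood cell precursor markers were listed at 0 in every mouse, and the other was not called. Multimapping reads and reads on overlapping genes were left out of the counts, and their part in these zeros was not tested.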

How the data were processed

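Liver RNA of 6 control and 6 BIBB-515 mice was analysed, grouped by the diet in the labels. The authors deposited raw read counts per gene, exon and transcript for each mouse, made with featureCounts from Subread 1.6.3 after alignment with STAR 2.5.3a (per the submitters' processing notes) to mm10 with a UCSC annotation. Per the file headers, the gene counts used no strand setting and excluded multimapping reads and reads on overlapping genes.

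Genes reaching 1 CPM in 2 or more of the 12 libraries were kept. CPM are counts scaled to library size. Counts were scaled by TMM and tested for diet by quasi-likelihood in edgeR 4.0.16 (R 4.3.3), with Benjamini-Hochberg adjustment over all 12481 tested genes. The paper does not describe the test used for the mouse libraries. On simulated counts with 200 of 12334 genes changed by a log2 fold of 1, this test recovered 100% of them, with 5.21% false among its calls. The simulation gave every gene the same spread between mice. This recovery therefore does not carry over to genes that vary more, such as *Fasn* (coefficient of variation 91.9% in control mice). Single genes and log2 ratios had a further two-sided exact permutation test over every labeling of the mice (log2 CPM, prior count 1). Alternatives used DESeq2 1.42.0, limma-voom (limma 3.58.1), edgeR's likelihood ratio test, other scalings and filters, the primary alignment tables, 1 surrogate variable (sva 3.50.0) and each mouse left out.

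The genes and gene lists were chosen with earlier results of these data known. The genes named are the 9 members, called genes of the pathway lists (up to 6 per list by lowest p), *Srebf1*, *Srebf2*, *Ppara*, *Mlxipl*, *Scd1*, *Elovl6*, *Fasn*, and the 3 genes most like *Fads1*, *Fads2* and *Elovl5*. The result of 1 pathway list is not reported here. Promoter sequences are from a table of RefSeq starts in which 6 of the 9 genes were found. *Hacd1* and *Cyb5a* stand in the tables under older symbols. The labels give no batch, and whether mice of a cage differ was not analysed here. The libraries held 22764819 to 31058370 counted reads.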

Additional observations from a re-analysis of the deposited data

Results flagged for a closer look

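Of 26 sets of 6 values (9 genes, 3 ratios and the library totals in each diet), 1 stood out by Dixon's gap test, where chance flags about 1 in 20. *Scd2* in control mouse 3 was at 14.5 CPM, above the next control at 9.55 CPM, a gap of 0.643 of the whole range, past the critical value for 6 samples. Without this mouse the *Scd2* call was kept.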

How the results depend on the processing

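The direction of all 9 genes was kept in all 198 refits of single genes, and 184 kept their side of the threshold. *Elovl2*, *Elovl5*, *Fads3* and *Scd2* stayed called in every alternative and with any 1 mouse left out. The 4 genes called lower became 3 to 4 with 1 mouse left out, and the 2 called higher became 1 to 2. With 1 surrogate variable 1 gene was called higher, since *Fads6* was lost (adjusted p = 0.0904), while *Fads1* was gained (adjusted p = 0.0493). With control mouse 3 and BIBB-515 mouse 8 both left out, an alternative chosen after seeing the data, 1 was called higher. Over all genes, 523 to 897 were called lower with 1 mouse left out. The rise of the *Fads1* over *Fads2* ratio was 0.20 to 0.31 with 1 mouse left out, and its unadjusted exact permutation p passed 0.05 in 3 of 12 of these. The *Elovl2* over *Elovl5* difference, −0.02, ran from −0.12 to 0.06 and changed sign without control mouse 1 (0.064) or 5 (2.12e-04), or BIBB-515 mouse 9 (0.01) or 11 (0.05). The *Scd2* over *Scd1* ratio kept its call throughout. Of the pathway lists, with 1 mouse left out, 0 to 4 PPAR-alpha targets were called lower, 3 to 7 sterol targets higher, 0 to 1 elongation partners higher and 0 to 1 acyl-CoA synthetases and acyltransferases lower. In the same fits 1 to 2 lipogenic targets were called lower, 1 to 2 genes of electron supply higher and 0 to 1 regulators lower. The gene most like *Fads1* was *Nr1i2* when the minimum average log2 CPM was 5. The cause of these changes was not tested. No paired analysis was made, since separate mice were randomized to the diets and the labels name no pairs.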
